A study of Homo sapiens with 9 samples.

Results

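The genes described here are MYC, its partner MAX and a group of genes whose proteins build ribosomes in the nucleolus. They were chosen by symbol, with earlier results of these data known. Every probe set annotated to exactly 1 of 48 member symbols was taken, which gave 57 probe sets for 39 genes, of 11963 genes measured in all. The other 9 symbols (BOP1, DDX18, DKC1, EBNA1BP2, GNL3, NOB1, NOP56, NOP58 and PPAN) are not analysed here. Where a gene had several probe sets, which held for 10 of the 39, the brightest stands for it.

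RNA came from 9 cultures of LNCaP, an androgen-responsive human prostate cancer line started from a lymph node metastasis, and was measured on Affymetrix arrays. Before treatment all were kept for 2 days in 10% serum stripped of steroid hormones with charcoal. By the labels, 3 then received 20 µM gedunin, a limonoid from plants that inhibits the HSP90 chaperone system, together with 1 nM of the synthetic androgen R1881, for 24 h. A further 3 received 1 nM R1881 with DMSO, and the last 3 received ethanol and DMSO, called vehicle below. For the R1881 cultures the titles give 6 h while the descriptions and protocols give 24 h. A difference in time thus cannot be told apart from gedunin in a comparison with them. Nor can it be told apart from R1881 between them and the vehicle cultures, whose titles give 24 h. No culture received gedunin alone. Against cultures without R1881, which by the labels are the vehicle cultures, an effect of gedunin cannot be told apart from one of R1881. The labels mark the cultures of a group as biological replicates.

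Array medians lay between 52.4 and 54.5 on the deposited linear intensity scale, and 37 of the 39 genes averaged above 52.4, against 7072 of 11963 genes in all. The 7 measured LNCaP markers averaged between 451 and 6800, and their sum lay at 14300 to 15700 on the gedunin arrays, 5450 to 6120 with the R1881 label and 28700 to 31100 with the vehicle label. These markers include KLK2, KLK3 and TMPRSS2, which androgen induces, and KLK3 alone averaged 7216, 1341 and 11839 in the same order. The part of the difference in this sum in the results below was not tested. Among other cell types, 0 of 3 basal epithelial, 3 of 5 fibroblast and 1 of 3 leukocyte markers averaged above 52.4. Summed over a list, the fibroblast markers lay at 371 to 393 on the gedunin arrays, 351 to 408 on the arrays labelled R1881 and 366 to 388 on those labelled vehicle, and the leukocyte markers at 120 to 130, 114 to 123 and 117 to 129. The androgen-induced gene FKBP5 measured 122 ± 16 on the gedunin arrays, 45.1 ± 3.15 with the R1881 label and 1815 ± 147 with the vehicle label (mean ± SD, n = 3 each). KLK2, KLK3 and TMPRSS2 were likewise lowest on the arrays labelled R1881, while CAMK2N1 and UGT2B17, described as repressed by androgen, were highest there. The androgen genes thus oppose the labels vehicle and R1881. Groups are named by label throughout, and a direction between those groups turns round if the labels were exchanged. Gedunin is therefore set against both groups, gene by gene. If the labels were exchanged, the arrays labelled R1881 would be those without androgen, and gedunin and R1881 could not be told apart against them. Both comparisons use the same gedunin arrays, so they do not bear on each other independently.

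MYC is a transcription factor that pairs with MAX and binds a short DNA motif, the E-box. Among its best-described targets are genes for RNA polymerase I, which transcribes ribosomal RNA, and for the nucleolar proteins that modify, cut and fold that RNA into small and large ribosomal subunits. In many cancers, of the prostate among them, high MYC goes with enlarged nucleoli and rapid ribosome production.

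The E-box was looked up in RefSeq promoter windows (GRCh38.p14), which run from 250 bases before a gene's annotated start to 50 bases from it on, because it is the motif through which MYC is described to reach these genes. The motif searched was CACGTG, which reads the same on both strands. A window was found for 32 of the 39 genes, and 15 of these held the motif in at least 1 window (46.9%), against 12.0% of the 9563 measured genes with a window. It lay in the 50 bases from the start on in 12 of the 32 (37.5%), against 1.51% of the measured genes. The windows below run from 30 bases before the start to 30 bases from it on, and for UTP18 from 100 bases before. They show genes with the motif whose transcript was lower beside gedunin than with the R1881 label (FBL, IMP4, NOP14, UTP18), genes with the motif whose transcript did not pass that test (PES1, RRP9, WDR43), and lower genes with no match in their window (NHP2, WDR12, POLR1C). Capitals mark the motif.
FBL (chr19:39846350-39846409, minus strand): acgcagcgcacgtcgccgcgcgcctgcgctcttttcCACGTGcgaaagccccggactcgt
IMP4 (chr2:130342867-130342926, plus strand): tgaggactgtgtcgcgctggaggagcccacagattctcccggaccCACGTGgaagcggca
NOP14 (chr4:2963377-2963436, minus strand): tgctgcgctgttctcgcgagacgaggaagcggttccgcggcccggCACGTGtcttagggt
UTP18 (chr17:51260446-51260575, plus strand): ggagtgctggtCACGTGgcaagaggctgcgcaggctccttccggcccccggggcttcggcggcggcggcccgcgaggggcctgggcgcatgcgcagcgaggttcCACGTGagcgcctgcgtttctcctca
PES1 (chr22:30591881-30591940, minus strand): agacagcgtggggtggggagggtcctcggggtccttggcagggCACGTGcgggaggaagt
RRP9 (chr3:51941875-51941934, minus strand): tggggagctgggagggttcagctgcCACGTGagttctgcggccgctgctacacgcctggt
WDR43 (chr2:28894637-28894696, plus strand): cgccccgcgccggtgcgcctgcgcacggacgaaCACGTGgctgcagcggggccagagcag
NHP2 (chr5:178153856-178153915, minus strand): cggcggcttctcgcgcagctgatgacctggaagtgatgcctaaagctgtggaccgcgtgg
WDR12 (chr2:202911644-202911703, minus strand): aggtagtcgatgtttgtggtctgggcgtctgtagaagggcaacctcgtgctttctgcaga
POLR1C (chr6:43517059-43517118, plus strand): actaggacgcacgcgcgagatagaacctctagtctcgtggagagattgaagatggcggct

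The share of genes with the motif was given for both kinds of gene without a test. Of the 15 genes with a window that were lower beside gedunin than with the R1881 label, 6 held it (40%), and of the other 17, 9 did (52.9%). A match in letters is not a site shown to be bound, and its absence here covers these windows only.

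**Figure D1:**
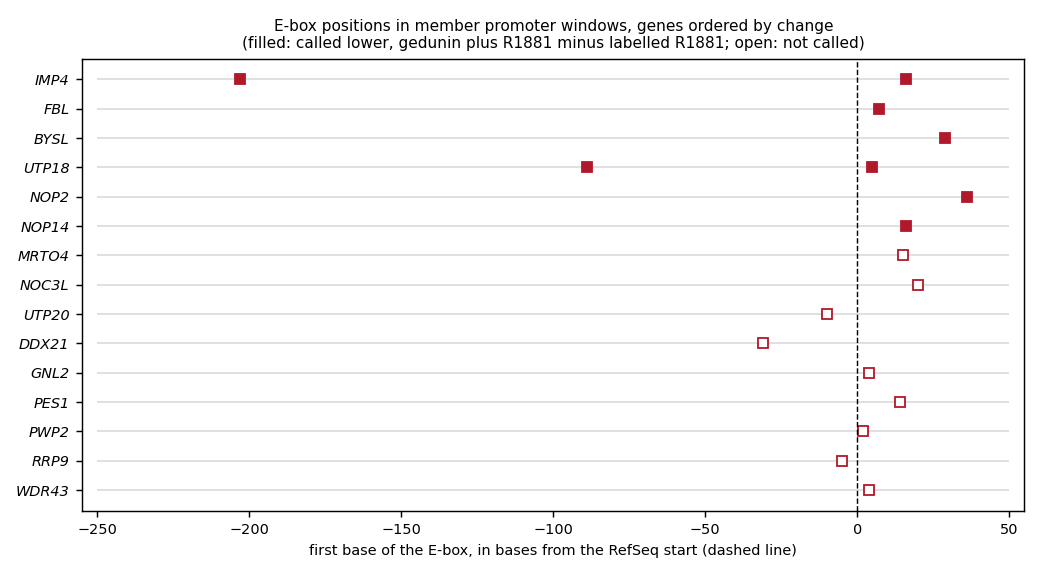
Position of each CACGTG match in the promoter windows of 15 member genes, in bases from the RefSeq start (x axis), with genes ordered from the most negative change at the top. Filled squares mark genes called lower beside gedunin than with the R1881 label and open squares genes not called; most matches sit in the 50 bases from the start on, in both kinds of gene.

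MYC had intensities of 314, 298 and 342 on the gedunin arrays, against 938, 1009 and 946 under the R1881 label and 467 under the vehicle label on each of 3 arrays. The 3 groups do not overlap, and gedunin was lowest. The vehicle values are equal to the last deposited digit, as they were for 98 genes in that group, and so carry no spread of their own. On the log2 scale MYC was -1.60 ± 0.06 (SE) on the gedunin arrays relative to those labelled R1881, 3.03-fold lower (limma, adjusted p = 7.14e-10), and -0.55 ± 0.06 relative to those labelled vehicle, 1.47-fold lower (adjusted p = 1.48e-05). Relative to vehicle-labelled arrays, the arrays labelled R1881 were 1.05 ± 0.06 higher (adjusted p = 2.58e-08). In RNA of a whole culture, fewer cells of a type that expresses a gene and less of its RNA per cell cannot be told apart, and since the arrays were scaled to a common distribution a change in total RNA is not seen.

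MAX measured 244, 257 and 293 on the gedunin arrays, against 325, 316 and 314 under the R1881 label and 275, 318 and 285 under the vehicle label. Gedunin lay below the R1881 label without overlap, at -0.27 ± 0.08 (adjusted p = 0.0167), and overlapped the vehicle label, at -0.15 (adjusted p = 0.200). The MAX call rests on its brightest probe set, since the other 4 ran from -0.08 to 0.15 and the mean of all 5 was at -0.06 (adjusted p = 0.606). It was also lost without gedunin replicate 1 (adjusted p = 0.0856), gedunin replicate 2 (0.0610) or R1881 replicate 1 (0.0551).

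**Figure D2:**
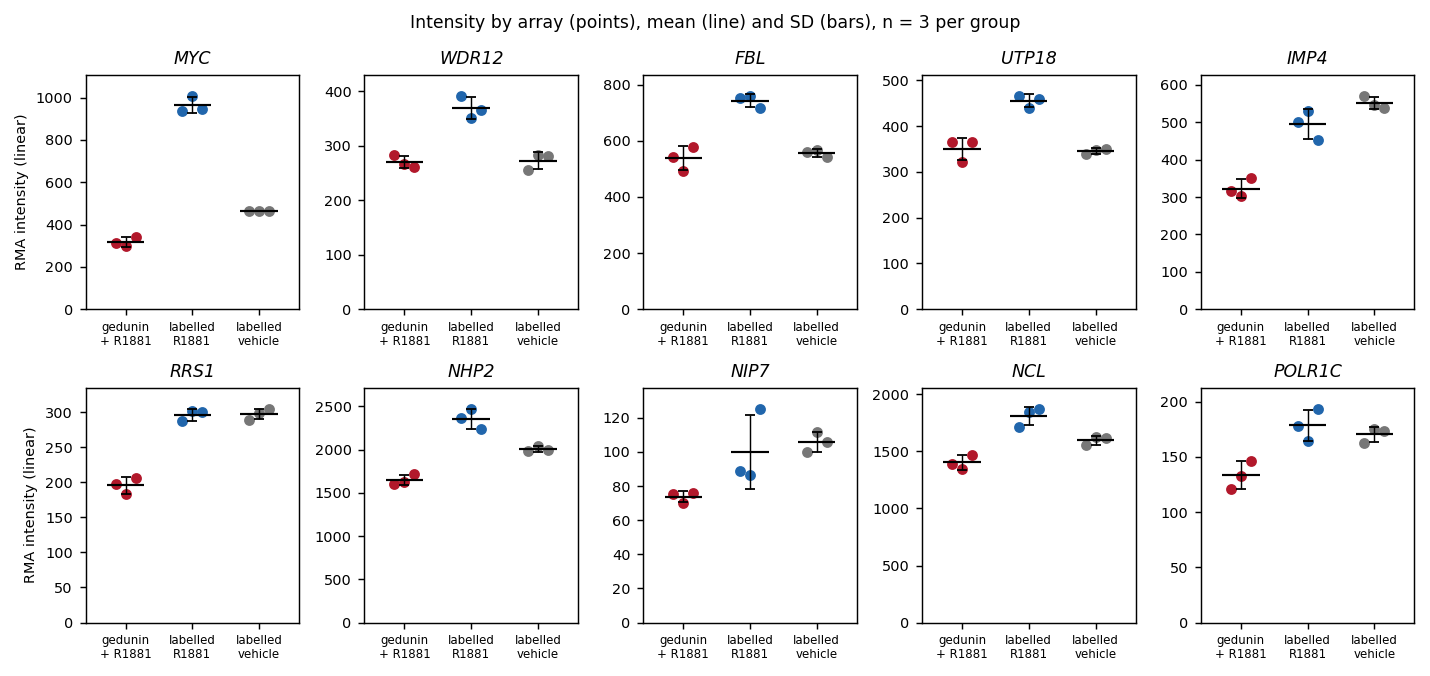
Linear RMA intensity (y axes, from 0) on each array for the 10 genes named by the largest changes, with gedunin plus R1881 left, labelled R1881 in the middle and labelled vehicle right; points are arrays, lines means and bars SDs (n = 3). MYC separates all 3 groups, WDR12, FBL and UTP18 stand apart on the arrays labelled R1881, and IMP4, RRS1 and NIP7 are lowest on the gedunin arrays.

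Set against the arrays labelled R1881, 19 of the 39 genes were lower on the gedunin arrays and 1 was higher at an adjusted p under 0.05. In all, 20 members were called (51.3%), where 27.4% of all 11963 genes were. Over all genes 13.4% were lower and 14.0% higher, and among the 7072 genes above 52.4, 40.7% were called, 19.3% lower and 21.4% higher. The members' median log2 fold change was -0.23, against -0.01 over all genes, and 33 of 39 lay below 0. With MYC left aside the count was 18 lower and 1 higher of 38.

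Set against the arrays labelled vehicle, 16 of the 39 were lower and 1 higher, 17 called in all (43.6%). Of all genes 26.9% were called there, 11.9% lower and 15.0% higher. Among genes above 52.4, 39.8% were called, 17.8% lower and 22.0% higher. The share of members called was thus near that of genes above 52.4. The members' median was -0.15, against -0.01 over all genes. The gedunin arrays had the lowest of the 3 group means for 30 of the 39 genes (76.9%), and for 34.5% of all genes.

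**Figure D3:**
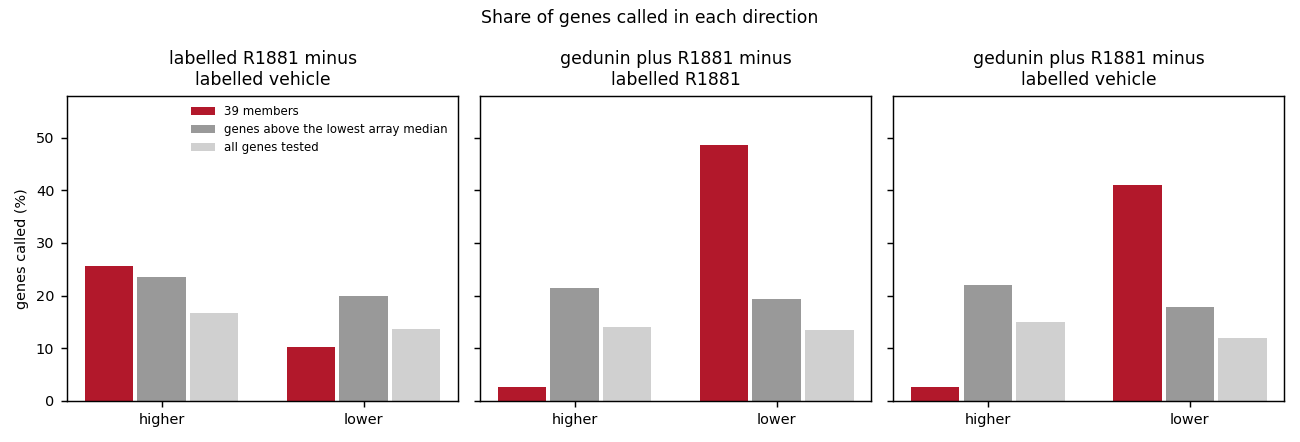
Percentage of genes called higher or lower (y axis) in each comparison, for the 39 members (red), genes above the lowest array median (dark grey) and all genes tested (light grey). In both gedunin comparisons the members' bars stand at 48.7% and 41.0% lower against 2.56% higher.

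When the label R1881 was set against the label vehicle, 14 of the 39 differed (35.9%), 10 higher and 4 lower on the arrays labelled R1881. Of all genes 30.3% differed, 16.7% higher and 13.6% lower, and of genes above 52.4, 43.5%, with 23.6% higher and 19.9% lower. The members' median was 0.04, against 0.00 over all genes. Log2 fold changes for this comparison are given for the members called in it and for some others. They rest on labels that the androgen genes oppose, and on an R1881 time that titles and protocols give differently.

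Box C/D and box H/ACA particles guide methylation and pseudouridylation of ribosomal RNA. Of 6 listed proteins 3 were measured. NHP2, an H/ACA core protein, had 1600, 1629 and 1713 on the gedunin arrays, against 2370, 2467 and 2232 under the R1881 label and 1985, 2044 and 1992 under the vehicle label. All 3 groups are apart, and gedunin was lowest, at -0.52 ± 0.06 relative to the R1881 label (adjusted p = 1.29e-05) and -0.29 relative to the vehicle label (adjusted p = 0.00190). The R1881 label was 0.23 above the vehicle label (adjusted p = 0.00729).

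FBL, fibrillarin, is the methyltransferase of box C/D particles. Its intensities were 541, 493 and 578 on the gedunin arrays, against 751, 760 and 715 under the R1881 label and 561, 568 and 541 under the vehicle label. The arrays labelled R1881 stand alone, and gedunin and vehicle overlap. FBL was at -0.47 ± 0.06 beside gedunin relative to the R1881 label (adjusted p = 9.44e-05) and at -0.05 ± 0.06 relative to the vehicle label (adjusted p = 0.634). RRP9, a protein of the U3 particle, averaged 52.6 ± 5.55 on the gedunin arrays, 52.5 ± 7.26 with the R1881 label and 58.4 ± 2.23 with the vehicle label, near the array median, and passed in no comparison.

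RNA polymerase I makes the ribosomal RNA precursor. POLR1C, a subunit shared with RNA polymerase III, measured 121, 133 and 147 on the gedunin arrays, against 178, 164 and 193 under the R1881 label and 163, 176 and 173 under the vehicle label. Gedunin lay below both labels without overlap, at -0.42 ± 0.08 (adjusted p = 0.00114) and -0.36 ± 0.08 (adjusted p = 0.00386), and its other probe set gave -0.38 and -0.32. POLR1E followed the pattern of FBL, with 86.1 ± 2.81 on the gedunin arrays, 111 ± 8.10 with the R1881 label and 89.7 ± 3.74 with the vehicle label. It was -0.36 relative to the R1881 label (adjusted p = 0.000713) and -0.06 relative to vehicle (adjusted p = 0.599). POLR1B, the second-largest subunit, passed in no comparison, with arrays between 145 and 231.

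The 5 listed genes code for nucleolar scaffold proteins and chaperones, and 2 of them were lower in each gedunin comparison. No other gene of the 5 was called there. Beside this, 27.4% and 26.9% of all genes were called, and 40.7% and 39.8% of genes above 52.4. The share of these 5 called was thus near that of genes above 52.4, of which 19.3% and 17.8% were lower. NCL, nucleolin, had 1392, 1348 and 1471 on the gedunin arrays, against 1718, 1847 and 1871 under the R1881 label and 1553, 1627 and 1615 under the vehicle label. The 3 groups are apart, with gedunin lowest. It was -0.37 ± 0.06 relative to the R1881 label (adjusted p = 0.000293) and -0.19 relative to the vehicle label (adjusted p = 0.0291). The second value was lost without gedunin replicate 1 (adjusted p = 0.0826) or 2 (0.110), or vehicle replicate 2 (0.0773) or 3 (0.0849).

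NPM1, nucleophosmin, which also has near-identical processed pseudogenes, averaged 4990 ± 47.8 on the gedunin arrays, 6053 ± 64.8 with the R1881 label and 5581 ± 144 with the vehicle label. It was -0.28 relative to the R1881 label (adjusted p = 0.000850), and all 3 of its probe sets were lower there, between -0.37 and -0.27. Relative to vehicle it was -0.16 (adjusted p = 0.0306). That call was lost without any 1 of the gedunin replicates (adjusted p = 0.0645, 0.0824 and 0.0695 without 1, 2 and 3) and without vehicle replicate 2 (0.0857) or 3 (0.0638). It was also lost with the replicate number as a block (0.0583). NOLC1, a chaperone of small nucleolar particles, was 0.22 higher with the R1881 label than with vehicle (adjusted p = 0.00328), but its other probe sets were at 0.02 and -0.08 and the mean of all 3 did not pass (adjusted p = 0.616). Beside gedunin NOLC1 passed in neither comparison, while a dimmer probe set was lower than with the R1881 label (-0.29, adjusted p = 0.0488 over all probe sets) and another lower than with vehicle (-0.26, adjusted p = 0.0365). NPM3 and TCOF1, treacle, passed in none, TCOF1 at 37.1 to 40.4 on average and so below the array median.

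The small subunit processome assembles on the ribosomal RNA precursor. Of 12 measured members of this machinery and of later small subunit maturation, 5 were lower on the gedunin arrays than with the R1881 label and 1 higher. Relative to vehicle, 4 were lower and 1 higher. Of the 12, 50.0% and 41.7% were called, against 27.4% and 26.9% of all genes and 40.7% and 39.8% of genes above 52.4. IMP4, a protein of the U3 particle, measured 315, 303 and 350 on the gedunin arrays, against 502, 531 and 453 under the R1881 label and 571, 546 and 539 under the vehicle label. Gedunin was well below both labels, which do not overlap each other either. The R1881 label was at -0.16 relative to the vehicle label, which did not pass (adjusted p = 0.130). IMP4 was 1.54-fold lower than with the R1881 label (-0.62 ± 0.07, adjusted p = 2.23e-05) and 1.71-fold lower than with vehicle (-0.78 ± 0.07, adjusted p = 3.07e-06), and the 1.71-fold fall was the largest among the 39 relative to vehicle.

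UTP18, a processome component, had 364, 322 and 364 on the gedunin arrays, against 466, 439 and 460 under the R1881 label and 339, 348 and 351 under the vehicle label. The arrays labelled R1881 stand alone. It was -0.38 ± 0.06 relative to the R1881 label (adjusted p = 0.000353) and 0.02 ± 0.06 relative to vehicle (adjusted p = 0.902). A far dimmer UTP18 probe set, with group means of 20.2 to 21.4, was at 0.02 relative to the R1881 label and passed in no comparison. WDR3, another processome component, was also highest with the R1881 label, with 315 ± 16.8 on the gedunin arrays, 378 ± 20.1 with the R1881 label and 330 ± 9.36 with the vehicle label, at -0.26 (adjusted p = 0.00541) and -0.07 (adjusted p = 0.506).

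BYSL, bystin, which acts in small subunit maturation, was lower beside gedunin than with either label, at -0.45 (adjusted p = 0.000247) and -0.31 (adjusted p = 0.00397). NOP14 was at -0.24 (adjusted p = 0.00957) and -0.32 (adjusted p = 0.00163), the first of which was lost without gedunin replicate 1 (adjusted p = 0.0520). PWP2, a processome component, averaged 80.1 ± 8.19 on the gedunin arrays, 86.2 ± 9.02 with the R1881 label and 106 ± 8.92 with the vehicle label. It fell relative to vehicle by 0.40 on the log2 scale (adjusted p = 0.00614) and was at -0.11 relative to the R1881 label (adjusted p = 0.498). UTP20, TBL3, RRP12, UTP3 and WDR43 passed in no comparison.

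DDX10, an RNA helicase, went the other way and is named because of it, after its values were seen. It measured 200, 199 and 175 on the gedunin arrays, against 167, 161 and 168 under the R1881 label and 166, 153 and 152 under the vehicle label. Gedunin lay above both labels without overlap, at 0.21 ± 0.06 (adjusted p = 0.0310) and 0.28 ± 0.06 (adjusted p = 0.00484). The first value was lost without gedunin replicate 1 (adjusted p = 0.124) or 2 (0.115), or R1881 replicate 1 (0.0623) or 2 (0.0988), and after a further quantile normalization (0.0591).

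**Figure D4:**
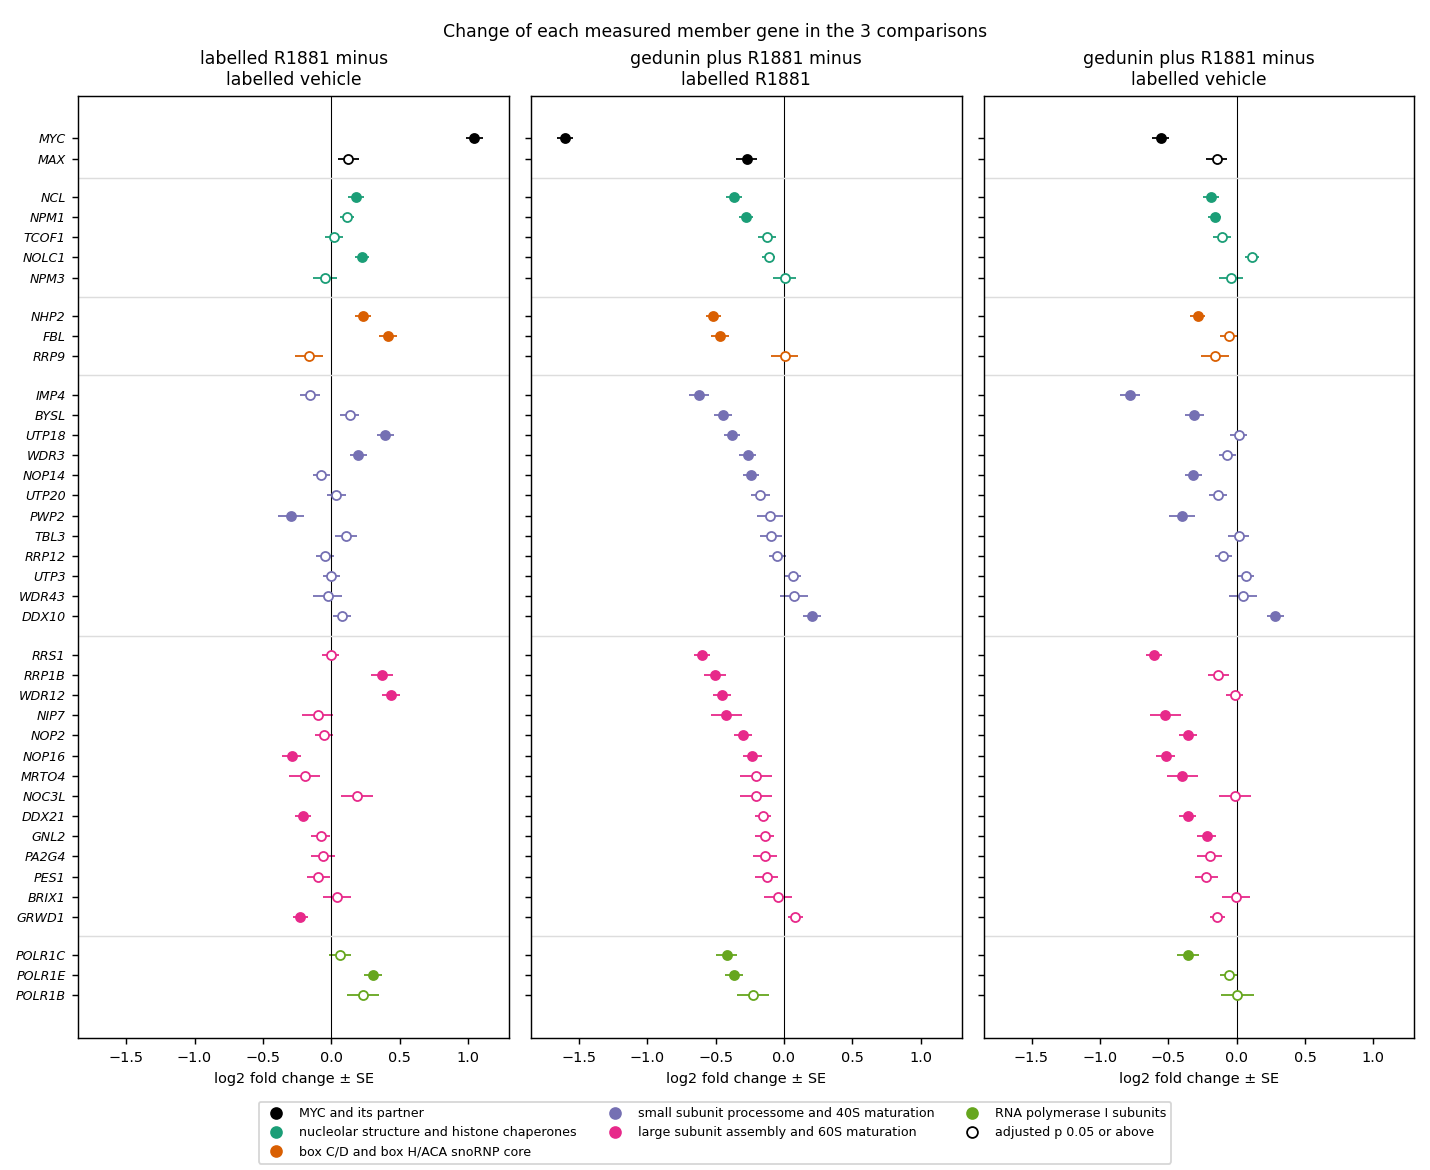
Log2 fold change ± SE (x axes) of the 39 measured genes in the 3 comparisons, grouped by role and coloured by it; filled points passed an adjusted p of 0.05. MYC is furthest from 0 in the left and middle panels, DDX10 is the only filled point right of 0 in the middle and right panels, and WDR12, UTP18 and FBL are filled in the left and middle panels and near 0 in the right one.

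Large subunit assembly factors numbered 14, of which 6 were lower beside gedunin than with the R1881 label, 7 were lower than with vehicle, and 0 were higher in either comparison by limma, at an adjusted p or at an unadjusted p under 0.05. Of the 14, 42.9% and 50.0% were called, against 27.4% and 26.9% of all genes and 40.7% and 39.8% of genes above 52.4. RRS1, which helps bring the 5S particle into the large subunit, measured 198, 183 and 206 on the gedunin arrays, against 287, 301 and 301 under the R1881 label and 289, 299 and 304 under the vehicle label. Gedunin stands alone, and both labels overlap. RRS1 was 1.52-fold lower in both comparisons, at -0.60 ± 0.06 (adjusted p = 4.61e-06) and -0.61 ± 0.06 (adjusted p = 4.74e-06), and the labels differed by -0.01 ± 0.06 (adjusted p = 0.961).

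WDR12 works with PES1 and BOP1 in the PeBoW complex, which is needed for processing of large subunit RNA. It had 283, 266 and 261 on the gedunin arrays, against 392, 351 and 365 under the R1881 label and 255, 283 and 281 under the vehicle label. The arrays labelled R1881 stand alone. WDR12 was -0.45 ± 0.06 relative to the R1881 label (adjusted p = 0.000122) and -0.02 ± 0.06 relative to vehicle (adjusted p = 0.914). Its partner PES1 passed in no comparison, with -0.13 (adjusted p = 0.339) and -0.22 (adjusted p = 0.0748). RRP1B, a nucleolar protein, had values like those of WDR12, at -0.50 (adjusted p = 0.000293) and -0.13 (adjusted p = 0.275), though its dimmer probe set was at -0.11 relative to the R1881 label and did not pass.

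NIP7, a late large subunit factor, had 75.4, 69.9 and 75.7 on the gedunin arrays, against 89.0, 86.2 and 125 under the R1881 label and 99.9, 112 and 106 under the vehicle label. Gedunin was lowest without overlap, and 1 array labelled R1881 was far above the other 2. NIP7 was -0.42 ± 0.11 relative to the R1881 label (adjusted p = 0.0132), lost without gedunin replicate 2 (adjusted p = 0.0566) and at -0.25 (adjusted p = 0.0141) without R1881 replicate 3, and -0.52 ± 0.11 relative to vehicle (adjusted p = 0.00364). The labels differed by -0.10 (adjusted p = 0.590) with all arrays and by -0.27 (adjusted p = 0.00892) without R1881 replicate 3.

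NOP2, a methyltransferase of large subunit RNA, was lower than with either label, at -0.30 (adjusted p = 0.00357) and -0.35 (adjusted p = 0.00122). NOP16 averaged 383 ± 29.2 on the gedunin arrays, 449 ± 26 with the R1881 label and 548 ± 29.8 with the vehicle label, which were all apart. It was -0.52 relative to vehicle (adjusted p = 8.67e-05) and -0.23 relative to the R1881 label (adjusted p = 0.0270). That second value was lost without gedunin replicate 1 (adjusted p = 0.0874) or 2 (0.116), without R1881 replicate 1 (0.0526) or 2 (0.113), and in the mean of its 4 probe sets (0.162), of which the dimmer 2 averaged between 37.4 and 41.7 and passed in no comparison. DDX21, a helicase linked to ribosomal RNA transcription and processing, was at -0.36 relative to vehicle (adjusted p = 0.000439) and -0.15 relative to the R1881 label (adjusted p = 0.0824).

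MRTO4 (-0.40, adjusted p = 0.0200) and GNL2, a nucleolar GTPase (-0.22, adjusted p = 0.0289), were lower relative to vehicle and did not pass relative to the R1881 label. The MRTO4 call was lost without gedunin replicate 3 (adjusted p = 0.0969) or vehicle replicate 1 (0.0829) or 3 (0.0847). The GNL2 call was lost without gedunin replicate 1 (0.123) or 2 (0.0975), or vehicle replicate 2 (0.110) or 3 (0.0608), all adjusted p. PA2G4, BRIX1, NOC3L and GRWD1 passed in neither gedunin comparison.

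In the comparison of the 2 labels, MYC, WDR12 (0.44), FBL (0.41), UTP18 (0.40), RRP1B (0.37), POLR1E (0.31), NHP2, NOLC1, WDR3 (0.20) and NCL (0.18) were higher on the arrays labelled R1881, and PWP2 (-0.29), NOP16 (-0.29), GRWD1 (-0.23) and DDX21 (-0.21) were lower. The adjusted p of WDR3, 0.0285 with all arrays, was 0.103 and 0.0541 without vehicle replicate 1 and 3, and 0.0582 and 0.0959 without R1881 replicate 2 and 3. That of NCL, 0.0325, was 0.110 and 0.0660 without vehicle replicate 1 and 3, and 0.0940 and 0.0905 without R1881 replicate 2 and 3. That of PWP2, 0.0317, was 0.123 and 0.103 without vehicle replicate 1 and 3, and 0.125 without R1881 replicate 3. That of DDX21, 0.0165, was 0.0714 without vehicle replicate 3 and 0.0672 without R1881 replicate 1. It was also 0.174 after a further quantile normalization.

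Across the 9 arrays, log2 values of 10 of the other 38 genes correlated with those of MYC at Pearson's r above 0.8, led by NHP2 (0.96), NCL (0.95), NPM1 (0.95) and FBL (0.95), and 6 correlated below 0, with DDX10 lowest at -0.53. The median r was 0.553. Neither the share of all genes above 0.8 nor their median was computed, so these values have no background beside them. The arrays fall into 3 groups, so these values mostly describe 3 group means and are given without a test. Over all 11963 genes, the 5 most like MYC by this measure were CIRBP (0.997), NONO (0.995), ANK3 (0.995), HDAC2 (0.995) and PEG3 (0.993). None of these is a member.

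Other genes of the same machinery were counted from lists of related factors. The shares to set beside these counts are 27.4% of all genes called relative to the R1881 label and 26.9% relative to vehicle. Among genes above 52.4 they are 40.7% and 39.8%. Of 33 measured small subunit factors outside the member list, 6 were lower and 7 higher on the gedunin arrays than with the R1881 label (median -0.02), and 7 were lower and 4 higher than with vehicle (median -0.04). DIMT1, which dimethylates small subunit RNA, averaged 302 ± 20.1 on the gedunin arrays, 557 ± 27.5 with the R1881 label and 346 ± 7.62 with the vehicle label, at -0.89 relative to the R1881 label (adjusted p = 2.15e-07). MPHOSPH10 rose relative to that label by 0.39 (adjusted p = 0.00229). IMP3, which works beside IMP4, was at -0.50 relative to vehicle (adjusted p = 1.43e-05).

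Of 40 further large subunit factors, 11 were lower and 2 higher on the gedunin arrays than with the R1881 label (median -0.06), and 9 were lower and 2 higher than with vehicle (median -0.09). MYBBP1A (-0.50), the ATPase gene NVL (-0.46) and NLE1 (-0.44) changed most relative to the R1881 label. The widest differences in the list were those of PAK1IP1, a nucleolar large subunit factor, relative to the vehicle label. It averaged 87.3 ± 6.02 on the gedunin arrays, 90.2 ± 9.01 with the R1881 label and 879 ± 92.0 with the vehicle label. It was 10.1-fold lower beside gedunin than with vehicle (adjusted p = 3.45e-11) and 9.74-fold lower with the R1881 label than with vehicle (adjusted p = 1.9e-11), and its gedunin and R1881-labelled arrays overlapped.

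The RNA exosome and RNase MRP list split evenly relative to the R1881 label, with 2 lower and 2 higher of 20 (median 0.02), and with 3 lower and 4 higher relative to vehicle (median 0.00). EXOSC8, an exosome subunit, was higher beside gedunin than with either label, at 0.45 (adjusted p = 0.000186) and 0.86 (adjusted p = 6.52e-07). Among 11 other small nucleolar particle factors, 1 was lower by limma relative to the R1881 label, NOP10 of the H/ACA core, at -0.31 (adjusted p = 0.00224). Relative to vehicle 2 were lower, among them NOP10 at -0.28 (adjusted p = 0.00509), and 3 were higher. RPAP3, an assembly chaperone, was not called relative to the R1881 label but was 0.73 higher beside gedunin than with vehicle (adjusted p = 2.58e-06). Of 15 further RNA polymerase I subunits and factors, 3 were lower relative to the R1881 label: TAF1D, a promoter factor (-0.67), POLR2H (-0.46) and POLR2L (-0.19), the last 2 shared with other polymerases. Relative to vehicle 2 were lower, TAF1D (-0.40) and POLR2H (-0.36), and 1 was higher, POLR1D at 0.71 (adjusted p = 6.28e-07).

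Among 10 measured genes of the wider MYC network, 1 was lower and 1 higher in each gedunin comparison. MXI1, a MAX partner that opposes MYC, was, like MYC, lower beside gedunin than with the R1881 label. It averaged 161 ± 6.28 on the gedunin arrays, 359 ± 24.4 with the R1881 label and 177 ± 8.46 with the vehicle label, 2.23-fold lower than with the R1881 label (adjusted p = 2.32e-08). MLXIP was higher beside gedunin than with either label, at 0.44 (adjusted p = 0.0199) and 0.85 (adjusted p = 0.000182). MLX was at -0.60 relative to vehicle (adjusted p = 1.34e-05).

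Of 31 other genes described as MYC targets, 14 were lower and 7 higher on the gedunin arrays than with the R1881 label (median -0.16), and 14 were lower and 5 higher than with vehicle (median -0.15). PPAT, the entry enzyme of purine synthesis, was lower relative to the R1881 label, at -0.77 (adjusted p = 1.31e-06). ODC1, ornithine decarboxylase, went the other way there, at 1.17 (adjusted p = 5.34e-09), and lay at -1.30 relative to vehicle (adjusted p = 1.96e-09). It averaged 4169 ± 178 on the gedunin arrays, 1846 ± 59.2 with the R1881 label and 10293 ± 257 with the vehicle label. MTHFD2, a mitochondrial folate enzyme, was 1.06 higher than with the R1881 label (adjusted p = 1.89e-07). SLC19A1, the reduced folate carrier, was at -0.76 relative to vehicle (adjusted p = 1.11e-06). Over all 160 genes of these lists, 38 were lower and 19 higher relative to the R1881 label (35.6% called), and 38 lower and 20 higher relative to vehicle (36.2% called), where 27.4% and 26.9% of all genes were called. Both pooled shares lay below those of genes above 52.4, 40.7% and 39.8%, though the lists were not filtered by intensity. By direction, 23.8% of the 160 were lower in each comparison, against 19.3% and 17.8% of genes above 52.4. Higher were 11.9% and 12.5%, against 21.4% and 22.0%. The lists differed: of the 31 genes described as MYC targets, 67.7% and 61.3% were called.

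**Figure D5:**
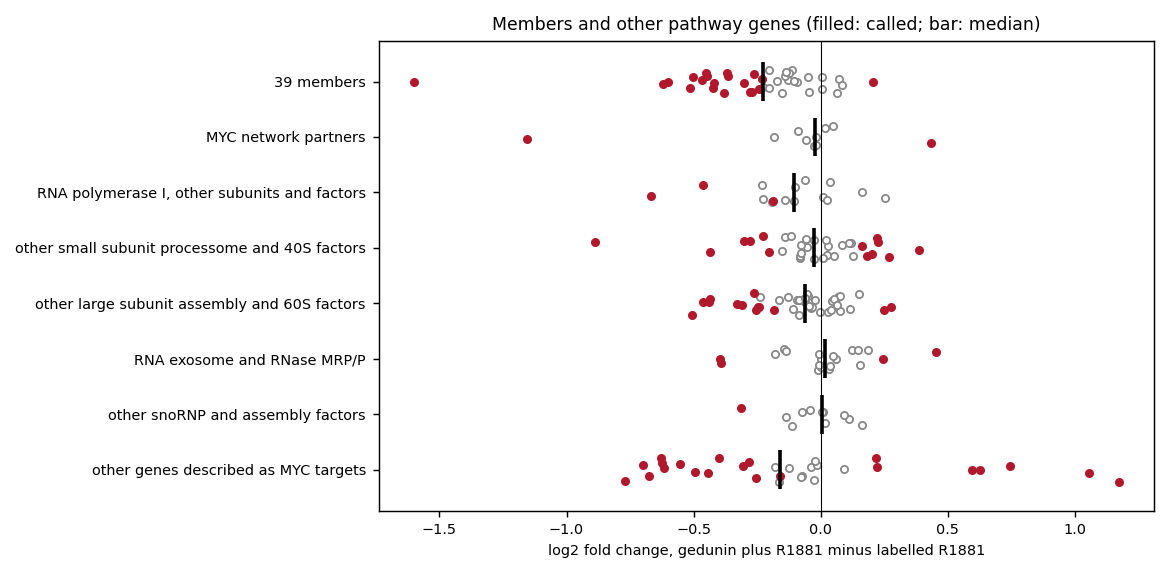
Log2 fold change, gedunin plus R1881 minus labelled R1881 (x axis), of the 39 members and of the genes of 7 related lists; filled points were called and bars mark medians. The members' median is at -0.23, and the list medians lie between -0.16 and 0.02.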

How the data were processed

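RNA of 9 LNCaP cultures was hybridised to 1-colour Affymetrix arrays. The values the authors deposited are RMA intensities on a linear scale (8.63 to 20189), per the submitters' processing notes and the values themselves. RMA corrects background, equalises the arrays' distributions and summarises probes, so changes in total RNA are not seen, and its version is not given in the sources used here. With 3 arrays in a group, their number limits the precision.

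The platform annotation gave exactly 1 symbol for 19064 of 22277 probe sets, several for 1043 and none for 2108, and 62 are controls. The deposited intensities were taken to log2 here, and the brightest probe set stood for each of 11963 genes.

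All 3 groups entered 1 limma fit (version 3.58.1, R 4.3.3) with a mean per group, followed by contrasts and eBayes without a trend. Tests were two-sided, adjusted by Benjamini-Hochberg over all genes, with a threshold of 0.05. Fits were checked on simulated data. Alternatives were another scaling, a pseudocount of 16, dim genes left out, other probe set rules, a variance trend, 2 groups only, a replicate block and each array left out. Errors are SDs over 3 arrays or limma's SEs.

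Members and lists were chosen with earlier results of these data known. Values on every array are given for MYC, the 4 called members with the largest change and no overlap between groups in each comparison, and the member with the largest change in each role. Up to 3 called genes per related list and comparison are named.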

Additional observations from a re-analysis of the deposited data

How the results depend on the processing

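Each result was recomputed under 18 alternatives. Of 51 calls on member genes, 37 kept direction and threshold in all of them and 14 did not; their values stand beside each gene, and here for NCL between the labels after median centring (0.18, adjusted p = 0.0523). MYC kept its direction and threshold throughout, with arrays left out from -1.65 to -1.55 (gedunin minus labelled R1881), from -0.61 to -0.51 (gedunin minus labelled vehicle) and from 1.01 to 1.07 (labelled R1881 minus labelled vehicle). The mean over probe sets in place of the brightest moved called values by over 1.5 times for UTP18 and RRP1B relative to the R1881 label (-0.18 and -0.31), NOP16 relative to vehicle (-0.28), and UTP18, RRP1B and NOP16 between the labels (0.23, 0.24 and -0.17), as further quantile normalization did for NCL and NHP2 between the labels (0.28 and 0.35), with all of these still called. Members lower between the labels numbered 2 to 4 with arrays left out, against 12% to 13.3% of all genes. Members higher on the gedunin arrays than with the R1881 label numbered 0 to 2 with arrays left out and 0 after further quantile normalization; relative to vehicle they numbered 2 with a pseudocount of 16. Members lower numbered 16 to 20 and 12 to 17 with arrays left out in the 2 gedunin comparisons. Of all genes, 11.3% to 13.7% and 9.87% to 12.6% were lower there. Signs turned only in differences that passed nowhere: RRS1 between the labels was 0.0245 after quantile normalization and -0.0257 to 0.0181 with arrays left out, and relative to vehicle UTP18 was -0.0105 after quantile normalization and -0.0135 to 0.0751 with arrays left out, FBL -0.108 to 0.00763 and WDR12 -0.0629 to 0.0114. The cause of these changes was not tested. Deviations of arrays with the same replicate number correlated between -0.11 and 0.13, so the numbers were not taken to pair them. With the replicate number as a block, 20, 16 and 14 members were called (gedunin minus labelled R1881, gedunin minus labelled vehicle, labels). Of all genes 26.8%, 26.6% and 29.9% were called with it. Among members, only NPM1 relative to vehicle lost its call under the block (limma, adjusted p = 0.0583).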
